A study of Mus musculus with 12 samples.

Results

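Cytosolic RNA sensing genes code for the proteins that detect viral or misplaced cellular RNA inside a cell and pass the signal on. The group described here was chosen by name and holds 10 genes of the 55573 gene rows measured in immortalised mouse embryonic fibroblasts. All 10 were matched to 1 row each, and all 10 were among the 16396 genes with enough counts to be tested. The 10 genes are Ifih1, Ddx58, Dhx58, Trim25, Eif2ak2, Adar, Nlrx1, Mavs, Traf3 and Tbk1. RNA was sequenced from 12 cultures in 4 groups of 3, harvested untreated 24 h after plating. The Fadd/Mlkl knockout group is Fadd -/-, Mlkl -/- with an empty vector, and the Fadd put back group is the same Fadd -/-, Mlkl -/- cells with Fadd expressed again from outside the locus. The Casp8/Mlkl knockout group is Casp8 -/-, Mlkl -/- with an empty vector, and the Casp8 put back group is the same cells with Casp8 expressed again. Every culture was thus labelled Mlkl -/- and carried SV40 large T antigen, with which the cells were immortalised, and no group is wild type. The sources used here do not give how many embryos or clones each line came from, so a difference between the Fadd line and the Casp8 line cannot be told apart from the origin of the lines. The study's title links caspase-8 and FADD to spontaneous expression of ZBP1, a sensor of nucleic acids, so the comparisons ask whether the RNA sensing genes differ where FADD or caspase-8 is absent.

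Long or uncapped double-stranded RNA in the cytosol is bound by the helicases MDA5 (gene Ifih1) and RIG-I (gene Ddx58), which then bind the adaptor MAVS on mitochondria. MAVS gathers TRAF proteins and the kinase TBK1, which activates the transcription factors that switch on type I interferon. Interferon in turn raises many of the sensors themselves, so the pathway feeds on its own output. LGP2 (gene Dhx58) is a further helicase that lacks the signalling domain and modulates the others. PKR (gene Eif2ak2) is a kinase that halts translation on binding double-stranded RNA, and ADAR edits adenosine in double-stranded RNA and so keeps cellular RNA from being sensed. FADD and caspase-8 are known from death receptor signalling, and both have also been linked to signalling downstream of MAVS.

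The promoters of the genes the results turn on are shown because interferon acts through a sequence element, the interferon-stimulated response element, whose core was searched here as GAAA, any 2 bases and GAAA again, on both strands. Each sequence is RefSeq's for GRCm38.p6, on the gene's strand, from 250 bases before to 50 bases after the start site. RefSeq's table held 12 promoters for 9 of the 10 genes. It held none for Dhx58, which was therefore not searched. The core was found in 3 of these 12, those of Ifih1, Ddx58 and Eif2ak2, and in 3.44% of all 32851 promoters of the same length. A shorter core that ends in GAA, and so lies inside the longer one, was found in 5 of the 12, adding 1 of the 3 promoters of Adar and that of Trim25, against 8.56% of all promoters. Capitals mark the longer core where it was found and otherwise the shorter one. A match describes these letters alone and shows no binding.
Ifih1, chr2:62646206-62646505, minus strand: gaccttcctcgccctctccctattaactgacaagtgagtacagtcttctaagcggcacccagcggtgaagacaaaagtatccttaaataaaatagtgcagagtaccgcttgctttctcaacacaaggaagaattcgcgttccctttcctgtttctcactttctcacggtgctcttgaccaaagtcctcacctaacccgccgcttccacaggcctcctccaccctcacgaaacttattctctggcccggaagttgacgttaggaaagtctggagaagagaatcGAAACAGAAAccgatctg
Ddx58, chr4:40239776-40240075, minus strand: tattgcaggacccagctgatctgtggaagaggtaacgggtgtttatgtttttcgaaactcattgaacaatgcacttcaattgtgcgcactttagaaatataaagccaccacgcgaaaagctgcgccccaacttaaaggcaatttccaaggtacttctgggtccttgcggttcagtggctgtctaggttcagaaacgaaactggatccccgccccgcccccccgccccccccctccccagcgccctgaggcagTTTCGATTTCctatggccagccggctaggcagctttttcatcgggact
Eif2ak2, chr17:78882523-78882822, minus strand: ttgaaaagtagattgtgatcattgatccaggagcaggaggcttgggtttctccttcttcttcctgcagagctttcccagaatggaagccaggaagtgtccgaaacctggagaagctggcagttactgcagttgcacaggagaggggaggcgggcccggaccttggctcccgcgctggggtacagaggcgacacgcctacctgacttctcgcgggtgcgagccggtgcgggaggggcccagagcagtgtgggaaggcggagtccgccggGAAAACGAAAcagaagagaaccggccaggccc
Adar, the promoter farthest downstream of 3, chr3:89730468-89730767, plus strand: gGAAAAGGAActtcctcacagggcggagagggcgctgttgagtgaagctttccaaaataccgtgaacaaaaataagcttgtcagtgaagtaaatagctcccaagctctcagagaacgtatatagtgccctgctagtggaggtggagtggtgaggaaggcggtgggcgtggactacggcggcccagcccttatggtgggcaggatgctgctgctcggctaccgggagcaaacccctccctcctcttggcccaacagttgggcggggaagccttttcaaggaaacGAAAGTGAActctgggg
Trim25, chr11:88999153-88999452, plus strand: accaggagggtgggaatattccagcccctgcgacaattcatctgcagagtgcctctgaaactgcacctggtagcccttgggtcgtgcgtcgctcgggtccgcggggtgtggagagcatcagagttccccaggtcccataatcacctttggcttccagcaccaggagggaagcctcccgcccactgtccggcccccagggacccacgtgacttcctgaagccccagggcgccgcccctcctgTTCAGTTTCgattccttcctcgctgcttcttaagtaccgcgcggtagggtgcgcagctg
Nlrx1, the farther upstream of its promoters, chr9:44268550-44268849, minus strand: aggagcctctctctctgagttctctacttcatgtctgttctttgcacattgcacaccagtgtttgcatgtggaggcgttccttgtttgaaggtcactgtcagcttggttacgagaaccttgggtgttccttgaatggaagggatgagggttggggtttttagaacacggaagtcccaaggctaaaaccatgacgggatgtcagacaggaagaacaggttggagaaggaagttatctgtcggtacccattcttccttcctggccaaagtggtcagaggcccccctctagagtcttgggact
Tbk1, chr10:121586745-121587044, minus strand: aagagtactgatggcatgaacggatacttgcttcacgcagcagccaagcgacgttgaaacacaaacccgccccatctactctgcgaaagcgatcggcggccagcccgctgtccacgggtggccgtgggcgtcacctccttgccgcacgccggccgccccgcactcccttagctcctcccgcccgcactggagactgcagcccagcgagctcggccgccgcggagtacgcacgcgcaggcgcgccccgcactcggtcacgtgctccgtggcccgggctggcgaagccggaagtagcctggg
The Nlrx1 and Tbk1 promoters are shown beside the others because neither held either core in this window. Within the Ifih1, Ddx58 and Eif2ak2 promoters the first base of the match lay 32, 2 and 18 bases after the start site.

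Libraries held 33918359 to 59388559 counts, of which 81.4% to 88.8% were in protein-coding genes. Fadd/Mlkl knockout replicate 1 had the lowest of these shares and the highest share of ribosomal RNA counts, at 1.11% against 0.362% to 0.753% in the other 11 libraries. Levels are CPM, which are counts scaled to library size by TMM, unless TPM is named. Fadd was at 0.176, 0.0364 and 0.0876 CPM in the Fadd/Mlkl knockout libraries and at 26.1, 19.1 and 25.8 CPM with Fadd put back. Casp8 was at 12.4, 11.3 and 10.4 CPM in the Casp8/Mlkl knockout libraries and at 67.7, 172.1 and 182.2 CPM with Casp8 put back, so put back replicate 1 held less of it than the other two. Mlkl had reads in every library, at 3.69 to 15.9 CPM, and a sum over the gene does not show whether the deleted part is among them. Both Fadd and Casp8 were lower in the knockout libraries of their line than in those with the gene put back. In the Casp8 line Fadd was at 8.62 to 11.29 CPM, and in the Fadd line Casp8 was at 39.27 to 54.55 CPM. Each gene was thus higher when put back than in the line where it was not knocked out. Changes without FADD or caspase-8 are against that higher level, and its part in them was not tested. Of 8 fibroblast markers, 7 or 8 had a TPM above 0 in each group, and Thy1 was at 0 in all groups but the Casp8/Mlkl knockout. Their summed TPM was 493 to 685 in Fadd/Mlkl knockout and 802 to 984 in Fadd put back libraries, and 1620 to 3160 in Casp8/Mlkl knockout and 2040 to 2540 in Casp8 put back libraries. It thus moved with the state of the Fadd line and with the line itself, and its part in the results was not tested. Summed TPM was at most 2.0 for 7 leukocyte markers, 0.33 for 5 epithelial and 0.15 for 4 endothelial ones, and Cd3e, Krt5 and Cdh5 were at 0 throughout. In bulk RNA, fewer cells expressing a gene and less RNA per cell cannot be told apart.

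The 10 genes differed widely in level. On TPM, which is scaled by transcript length and so allows genes to be compared, the mean over the 12 libraries was highest for Eif2ak2 at 20.9 and Ddx58 at 18.5, followed by Tbk1 at 14.4 and Adar at 13.1. Traf3 stood at 7.24, Trim25 at 7.23, Dhx58 at 6.96, Ifih1 at 5.21 and Mavs at 4.76 TPM, and Nlrx1 was the lowest at 0.728 TPM. How far a gene varied differed as well. The ratio of the highest to the lowest library, in CPM, was 154 for Dhx58, 29.6 for Nlrx1, 21.2 for Trim25, 12.3 for Ifih1, 11.9 for Ddx58, 8.88 for Adar and 6.78 for Eif2ak2. It was 1.9 for both Traf3 and Tbk1 and 1.56 for Mavs. The genes of the adaptor MAVS, TRAF3 and TBK1 thus varied least of the 10 over these libraries.

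**Figure D1:**
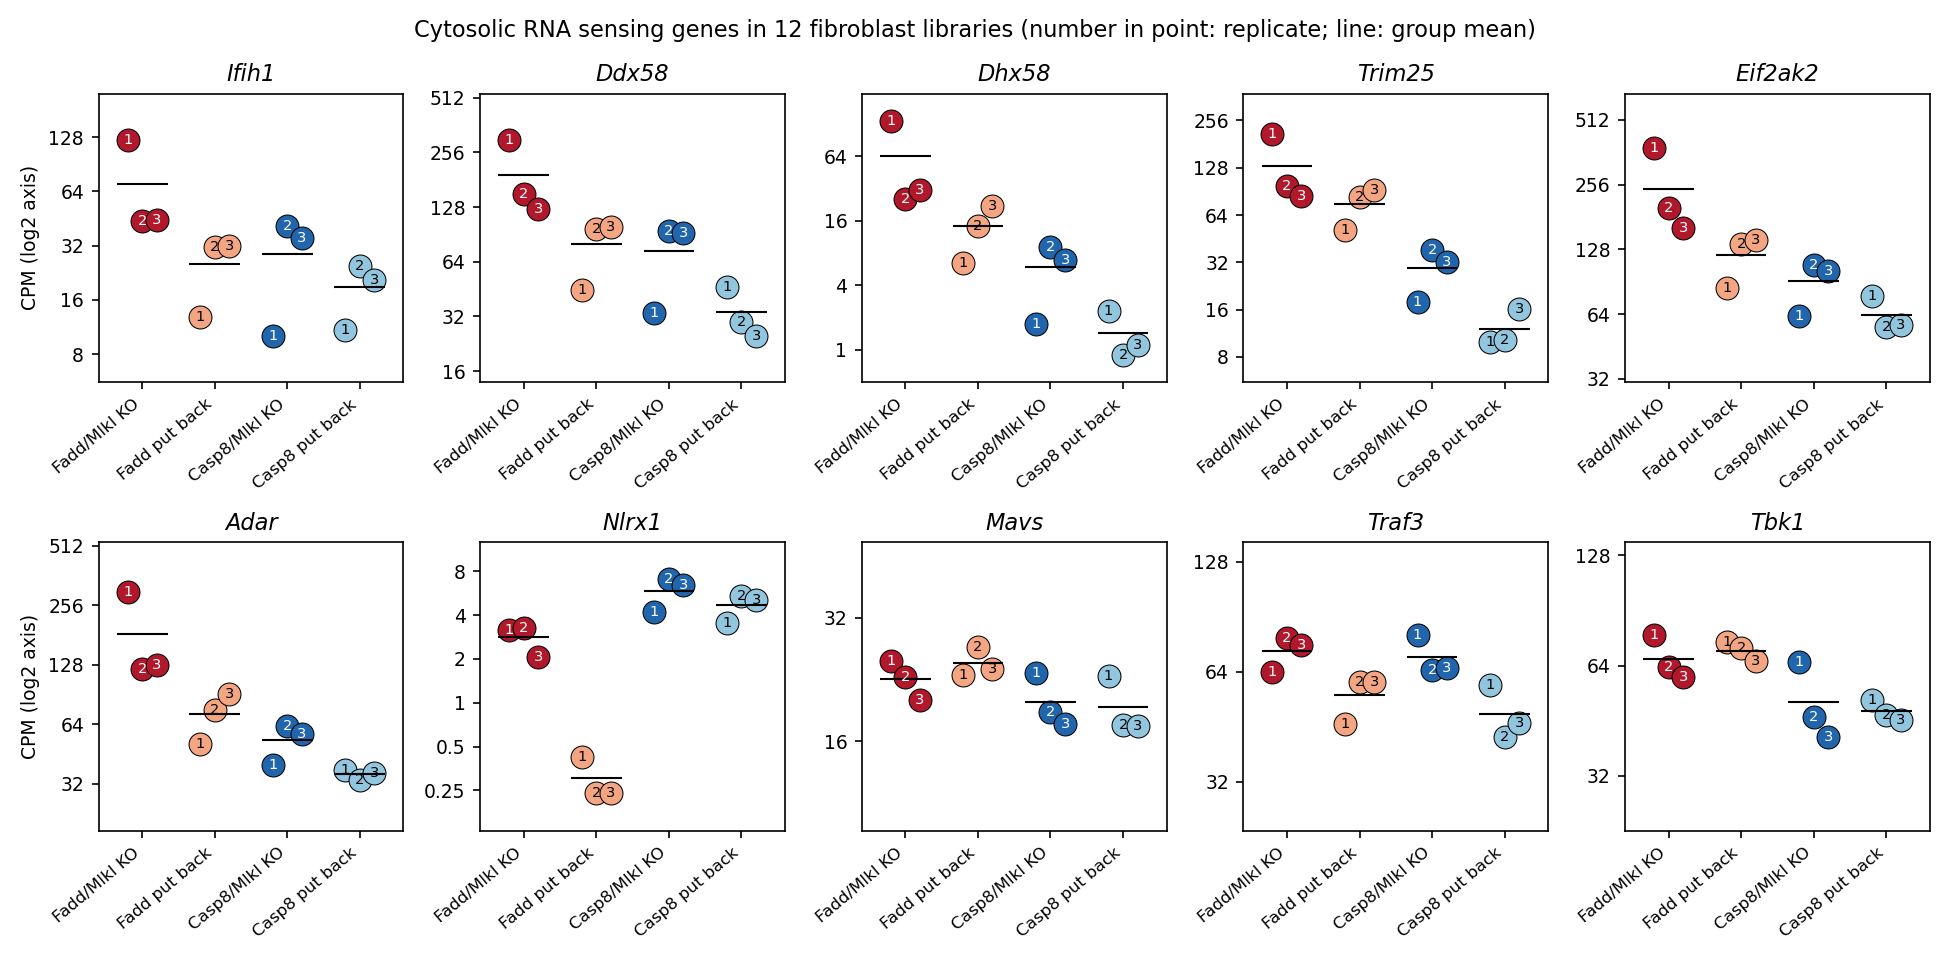
Level of each RNA sensing gene in CPM on a log2 axis, in the 3 libraries of each of the 4 groups, with the replicate number in each point and a line at the group mean. Fadd/Mlkl knockout replicate 1 is the highest library for Ifih1, Ddx58, Dhx58, Trim25, Eif2ak2 and Adar, the 3 Fadd put back libraries are the lowest for Nlrx1, and Mavs lies between 17.5 and 27.2 CPM in every library.

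Without FADD, 1 of the 10 genes passed the test, and this was Nlrx1. The helicase genes Ifih1, Ddx58 and Dhx58, and also Eif2ak2, Adar and Traf3, were higher in every Fadd/Mlkl knockout library than in any library with Fadd put back, but they did not pass. By edgeR's quasi-likelihood test at an adjusted p under 0.05, 1 of 10 was called higher and 0 lower, against 0.287% and 1.24% of the 16396 genes tested. At an unadjusted p under 0.05, 7 of the 10 were higher, against 4.4% of all genes tested. DESeq2 called 2 of the 10 higher (Adar and Nlrx1), against 1.37% of all genes, and limma-voom 1, against 0.335%. The median log2 change of the 10 genes was 1.14, beside 0.00373 over all genes tested. In 7 of the 10 the CPM ranges of the groups did not overlap, with the knockout higher, as in 7.79% of all genes tested.

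Without caspase-8, none of the 10 genes passed, although all 10 fitted changes were above 0. By edgeR 0 of 10 were called higher and 0 lower, against 0% and 0.0061% of all genes tested, or 0 and 1 genes. At an unadjusted p under 0.05, 4 of the 10 were higher (Ddx58, Dhx58, Trim25 and Traf3), against 4.12% of all genes tested, while DESeq2 called 0 of the 10 with 0.805% of all genes called higher, and limma-voom 0 with 0%. The median log2 change was 0.55 over the 10 genes, beside 0.00785 over all genes. In Trim25, Adar and Traf3, 3 of the 10, every Casp8/Mlkl knockout library lay above every library with Casp8 put back, as in 5.78% of all genes tested. Averaged over both lines, edgeR again called Nlrx1 alone, 1 of 10 against 0.171% of genes called higher and 0.372% lower, while DESeq2 called 6 of 10 higher against 1.82%, namely Ddx58, Dhx58, Trim25, Adar, Nlrx1 and Traf3.

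**Figure D2:**
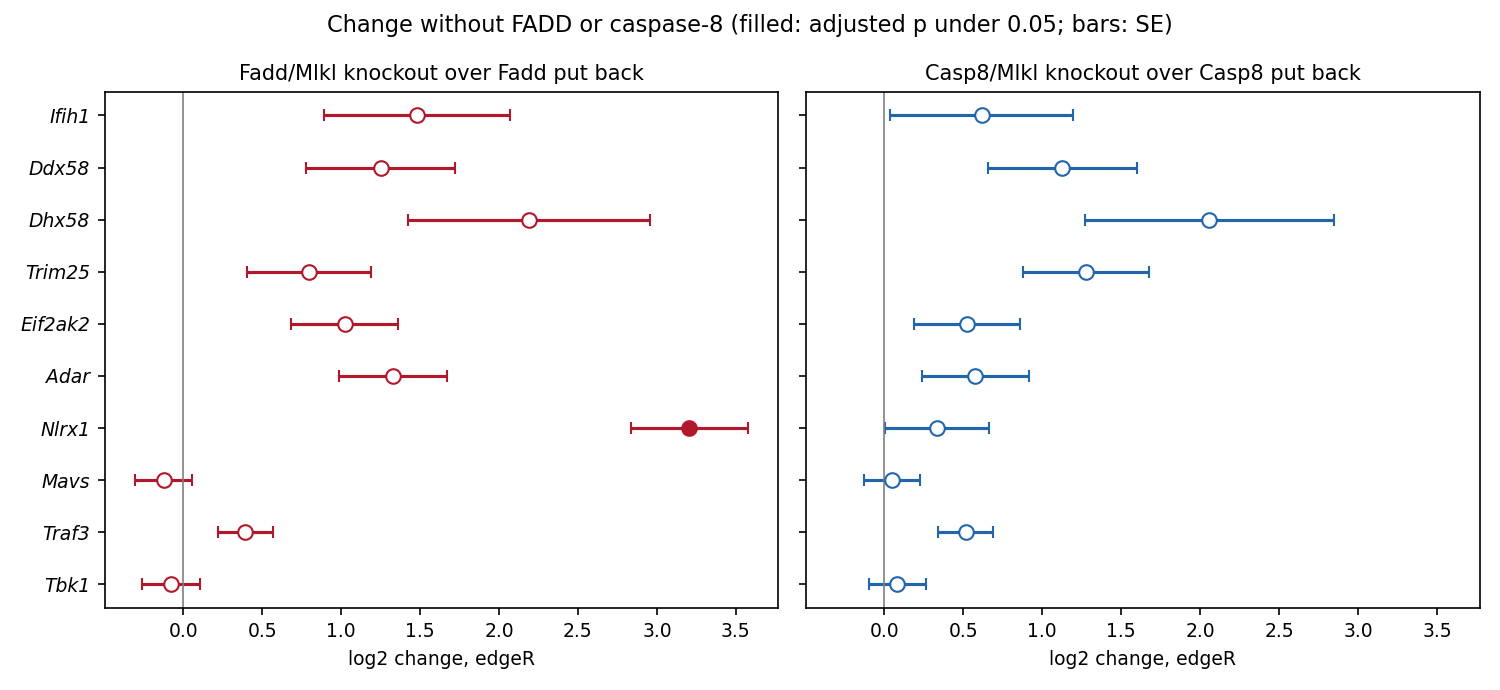
Fitted log2 change of each gene, knockout over put back, in the Fadd line and in the Casp8 line, with bars for the SE of the edgeR fit and filled points for an adjusted p under 0.05. The single filled point is Nlrx1 in the Fadd line at 3.21, and Mavs and Tbk1 lie at 0 within their SE in both lines.

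Among the sensors, Ifih1 (ENSMUSG00000026896.14, mm10 chromosome 2, 62595798 to 62646255) codes for MDA5, which binds long double-stranded RNA. It was at 124.2, 43.9 and 44.3 CPM in the Fadd/Mlkl knockout libraries and at 12.9, 31.3 and 32.0 CPM with Fadd put back. The ranges did not overlap, and the highest library was knockout replicate 1. The log2 change was 1.48 (SE 0.589, edgeR adjusted p = 0.376). Without caspase-8 it was at 10.1, 41.0 and 35.2 CPM, and at 10.97, 24.7 and 20.7 CPM with Casp8 put back. Here the groups overlapped, since replicate 1 was the lowest library of both, and the log2 change was 0.62 (SE 0.58, edgeR adjusted p = 0.993).

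Ddx58 (ENSMUSG00000040296.15, mm10 chromosome 4, 40203773 to 40239828) codes for RIG-I, which binds short double-stranded RNA with an uncapped end. It was at 300.0, 150.3 and 124.3 CPM in the Fadd/Mlkl knockout libraries and at 44.9, 97.3 and 99.1 CPM with Fadd put back. The groups did not overlap, and the log2 change was 1.25 (SE 0.471, edgeR adjusted p = 0.333). Ddx58 was at 33.5, 94.8 and 92.5 CPM without caspase-8 and at 46.2, 29.8 and 25.1 CPM with Casp8 put back. The replicates numbered 2 and 3 lay well above their put back partners and replicate 1 lay below its own. The log2 change was 1.13 (SE 0.47, edgeR adjusted p = 0.83).

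Dhx58 (ENSMUSG00000017830.15, mm10 chromosome 11, 100694884 to 100704271), the gene of LGP2, varied most of the 10. It was at 137.6, 25.8 and 30.7 CPM in the Fadd/Mlkl knockout libraries and at 6.51, 14.2 and 21.9 CPM with Fadd put back. These ranges did not overlap, and the log2 change was 2.19 (SE 0.767, edgeR adjusted p = 0.287). In the Casp8 line Dhx58 was at 1.73, 9.18 and 6.94 CPM without caspase-8 and at 2.28, 0.896 and 1.11 CPM with Casp8 put back, for a log2 change of 2.06 (SE 0.788, edgeR adjusted p = 0.76). Replicate 1 of the knockout group again lay among the put back libraries. An antisense gene, Dhx58os, overlaps exons of Dhx58 on the other strand. It held 145, 40 and 77 counts in the Fadd/Mlkl knockout libraries against 7834, 1417 and 1404 counts of Dhx58, and 17, 10 and 16 with Fadd put back against 305, 590 and 1008. Without caspase-8 it held 15, 0 and 5 counts against 75, 399 and 237 of Dhx58, and with Casp8 put back 5, 0 and 0 against 117, 50 and 54. The sources used here do not say whether counting used strand, so reads of the 2 genes may not be told apart.

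Trim25 (ENSMUSG00000000275.16, mm10 chromosome 11, 88999376 to 89020293) codes for a ubiquitin ligase that activates RIG-I. It was at 211.1, 97.9 and 84.5 CPM in the Fadd/Mlkl knockout libraries and at 51.6, 83.4 and 91.8 CPM with Fadd put back. These groups overlapped, and the log2 change was 0.79 (SE 0.393, edgeR adjusted p = 0.564). Trim25 was at 17.8, 38.1 and 32.1 CPM without caspase-8 and at 9.98, 10.2 and 16.1 CPM with Casp8 put back. All 3 knockout libraries lay above the others, with a log2 change of 1.28 (SE 0.4, edgeR adjusted p = 0.651).

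The effector kinase gene Eif2ak2 (ENSMUSG00000024079.4, mm10 chromosome 17, 78852564 to 78882573) was at 377.5, 198.8 and 160.3 CPM in the Fadd/Mlkl knockout libraries and at 85.0, 136.1 and 141.4 CPM with Fadd put back. The groups did not overlap, and the log2 change was 1.02 (SE 0.337, edgeR adjusted p = 0.245). In caspase-8's absence it was at 62.7, 108.7 and 102.0 CPM, and at 77.4, 55.7 and 57.1 CPM with Casp8 put back, for a log2 change of 0.52 (SE 0.335, edgeR adjusted p = 0.951). Replicate 1 again made these groups overlap.

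Adar (ENSMUSG00000027951.16, mm10 chromosome 3, 89715022 to 89753446) was at 296.6, 121.8 and 127.3 CPM in the Fadd/Mlkl knockout libraries and at 50.7, 75.7 and 90.6 CPM with Fadd put back. After Nlrx1 it had the lowest adjusted p of the 10 in this line, with a log2 change of 1.33 (SE 0.343, edgeR adjusted p = 0.104; DESeq2 0.00959). Without caspase-8 it was at 39.99, 62.8 and 57.0 CPM, against 37.5, 33.4 and 36.3 CPM with Casp8 put back. Adar and Traf3 were the 2 of the 10 genes whose knockout and put back groups did not overlap in either line. Of all genes tested, 7.79% lay apart with the knockout higher in the Fadd line and 5.78% in the Casp8 line. The share in both lines was not counted. The Adar change in the Casp8 line was 0.58 (SE 0.339, edgeR adjusted p = 0.949). The values are sums over the gene, so the interferon-driven and the constitutive transcript of Adar are not separated.

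Nlrx1 (ENSMUSG00000032109.15, mm10 chromosome 9, 44252717 to 44268599) codes for a mitochondrial NOD-like receptor described as an inhibitor of MAVS signalling. It was at 3.14, 3.24 and 2.06 CPM in the Fadd/Mlkl knockout libraries, from 179, 178 and 94 counts, and at 0.427, 0.241 and 0.239 CPM with Fadd put back, from 20, 10 and 11 counts. It rose 9.22-fold without FADD, a log2 change of 3.21 (SE 0.371, edgeR adjusted p = 0.00127). The change was between 3.06 and 3.57 with any 1 library left out, with an adjusted p of at most 0.0122. Nlrx1 was at 4.22, 7.06 and 6.41 CPM without caspase-8 and at 3.52, 5.43 and 5.08 CPM with Casp8 put back. These groups overlapped, and the log2 change was 0.33 (SE 0.327, edgeR adjusted p = 0.999). Every Fadd/Mlkl knockout library lay below every library of the Casp8 line, and the Fadd put back libraries lay lower still. The group that stood apart was thus Fadd put back, and Nlrx1 was not high in Fadd/Mlkl knockout cells beside the Casp8 line. The difference between the changes in the 2 lines was 2.87 (SE 0.486, edgeR adjusted p = 0.0176), and Nlrx1 was the 1 gene of the 10 called there, with 0.0549% of all genes called higher and 0.787% called lower. This call was lost without Fadd/Mlkl knockout replicate 2 (adjusted p = 0.0613), Fadd put back replicate 2 (0.0727) or 3 (0.0578), Casp8/Mlkl knockout replicate 3 (0.0516) or Casp8 put back replicate 2 (0.0609) or 3 (0.0628). With 10 to 20 counts in the Fadd put back libraries, the size of the ratio rests on few reads.

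The adaptor gene Mavs (ENSMUSG00000037523.13, mm10 chromosome 2, 131234063 to 131248025) was at 25.1, 22.9 and 20.2 CPM in the Fadd/Mlkl knockout libraries and at 23.2, 27.2 and 23.9 CPM with Fadd put back. Without caspase-8 it was at 23.5, 18.8 and 17.7 CPM, against 23.1, 17.5 and 17.5 CPM with Casp8 put back. The groups overlapped in both lines. The log2 changes were -0.12 (SE 0.178) and 0.0475 (SE 0.179), with edgeR adjusted p = 0.991 and 0.999, and the sign in the Casp8 line turned to -0.0876 without Casp8/Mlkl knockout replicate 1 and to -0.0182 and -0.0219 without Casp8 put back replicate 2 or 3.

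Tbk1 (ENSMUSG00000020115.3, mm10 chromosome 10, 121546455 to 121586787), the kinase gene at the end of the relay, was at 77.4, 63.2 and 59.6 CPM in the Fadd/Mlkl knockout libraries and at 74.0, 71.3 and 65.7 CPM with Fadd put back. Its log2 change was -0.0758 (SE 0.182, edgeR adjusted p = 1). Without caspase-8 it was at 65.3, 46.4 and 40.8 CPM, against 51.6, 47.0 and 45.5 CPM with Casp8 put back, a log2 change of 0.0818 (SE 0.182, edgeR adjusted p = 0.999). Both pairs of groups overlapped, and the sign in the Casp8 line turned to -0.142 without Casp8/Mlkl knockout replicate 1.

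Traf3 (ENSMUSG00000021277.16, mm10 chromosome 12, 111166370 to 111267153) codes for the ubiquitin ligase that links MAVS to TBK1. It was at 63.9, 79.1 and 75.8 CPM in the Fadd/Mlkl knockout libraries and at 46.2, 60.2 and 59.9 CPM with Fadd put back. Without caspase-8 it was at 80.6, 64.7 and 65.6 CPM, against 58.9, 42.4 and 46.3 CPM with Casp8 put back. The knockout was the higher of the pair in both lines with no overlap, by a log2 change of 0.40 (SE 0.176, edgeR adjusted p = 0.47) and 0.51 (SE 0.176, edgeR adjusted p = 0.701). Averaged over both lines the change was 0.45 (SE 0.124, edgeR adjusted p = 0.166), and it passed with the replicate number as a block within each line (0.46, edgeR adjusted p = 0.0259), where it and Nlrx1 were the 2 members called, against 0.421% of all genes called higher.

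In the pairs numbered 1 the sensor genes stood apart in both lines, in opposite ways. In the Fadd line the log2 CPM of the knockout minus that of its same-numbered put back library was 3.27, 0.487 and 0.469 for Ifih1 in replicates 1, 2 and 3, 2.74, 0.626 and 0.327 for Ddx58, and 4.39, 0.858 and 0.489 for Dhx58. In the Casp8 line the same differences were -0.119, 0.732 and 0.767 for Ifih1, -0.462, 1.67 and 1.88 for Ddx58, and -0.388, 3.30 and 2.60 for Dhx58. The large differences thus came from replicate 1 in the Fadd line and from replicates 2 and 3 in the Casp8 line. Over the 10 genes the median pair difference in replicates 1, 2 and 3 was 2.35, 0.517 and 0.333 for the Fadd line and 0.0597, 0.822 and 0.71 for the Casp8 line, while over all genes tested it lay between -0.0192 and 0.0211 in each pair. Nlrx1 and Traf3 did not follow this pattern. Nlrx1 differed by 2.76, 3.54 and 2.90 within the Fadd pairs and by 0.258, 0.376 and 0.333 within the Casp8 pairs. Traf3 differed by 0.467, 0.392 and 0.339 within the Fadd pairs and by 0.452, 0.608 and 0.502 within the Casp8 pairs. The protein-coding share was lowest in Fadd/Mlkl knockout replicate 1, and Casp8 was lowest among the put back libraries in replicate 1, as given above. Ppp1r15a, alone of the PKR arm genes listed below, was highest in replicate 1 of all 4 groups. It was there at 147.8 and 156.7 CPM in Fadd/Mlkl knockout and Fadd put back. In Casp8/Mlkl knockout and Casp8 put back it was at 89.9 and 92.3 CPM, against 26.4 to 44.1 CPM in all other libraries. Replicate 1 thus also differed in the same direction in every group. The part of these features in the pair differences was not tested.

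**Figure D3:**
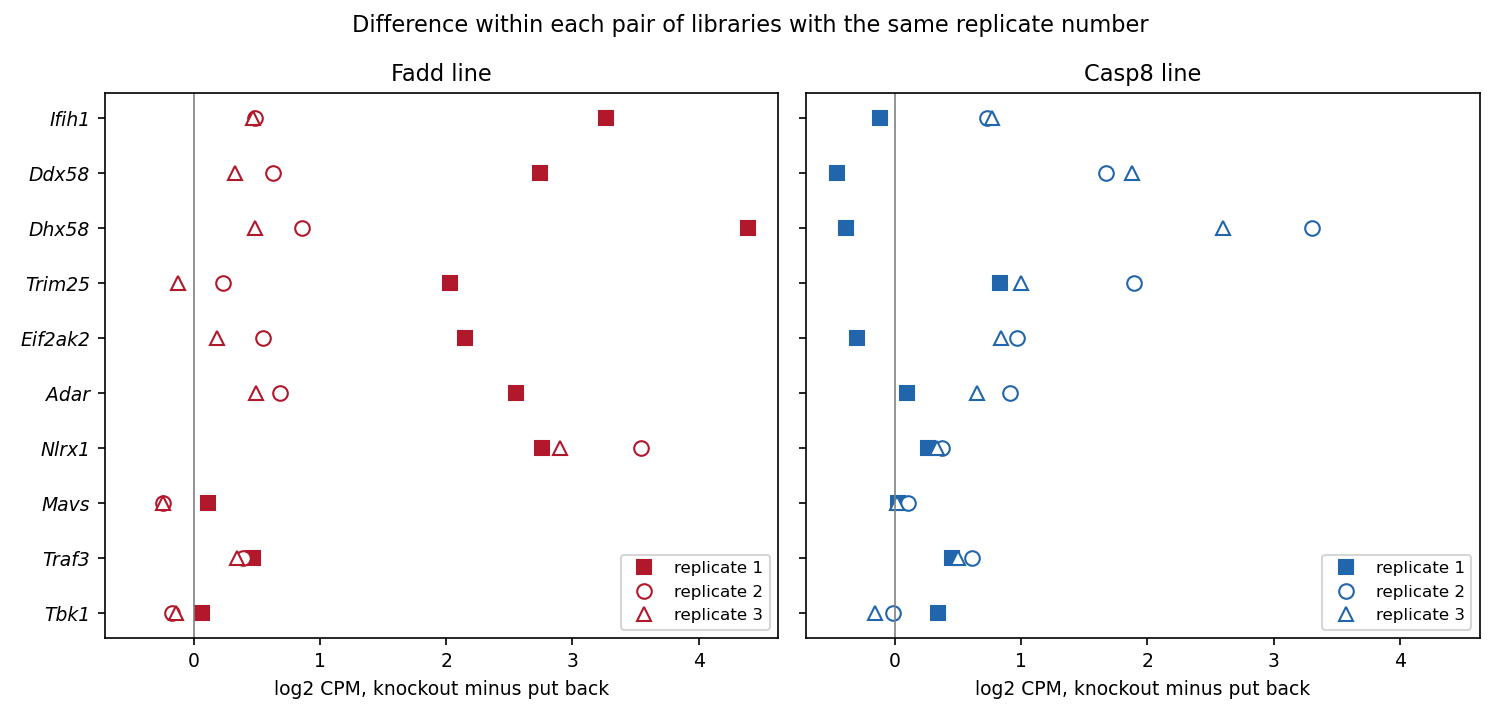
Difference in log2 CPM between the knockout and the put back library of the same replicate number, for each gene, in the Fadd line and in the Casp8 line, with replicate 1 as filled squares. Replicate 1 of Dhx58 lies at 4.39 in the Fadd line and at -0.388 in the Casp8 line, while the 3 pairs of Traf3 lie between 0.339 and 0.608 in both.

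With the 4 libraries of replicate 1 left out, Ddx58, Dhx58 and Trim25 had larger changes without caspase-8 than without FADD. For these genes replicate 1 held the highest pair difference of the Fadd line and the lowest of the Casp8 line. The shift thus follows from leaving replicate 1 out, and the calls and adjusted p values below are no separate support for it. In the Casp8 line 7 of the 10 genes were then called higher without caspase-8 (Ifih1, Ddx58, Dhx58, Trim25, Eif2ak2, Adar and Traf3), against 10.1% of the 16419 genes then tested. In the Fadd line 2 were called higher (Adar and Nlrx1), against 1.97%. Dhx58 had a log2 change of 0.65 in the Fadd line (edgeR adjusted p = 0.177) and 3.01 in the Casp8 line (0.00123), and the difference between them was -2.36 (0.0079), against 0.13 with all libraries. Ddx58 had 0.48 (edgeR adjusted p = 0.0706) and 1.77 (0.000583), with a difference of -1.29 (0.00557), and Trim25 0.058 (0.926) and 1.42 (0.00727), with a difference of -1.36 (0.0259). Those 3 genes were called lower in the difference, as were 7.62% of all genes tested, while Nlrx1 was the 1 called higher, against 3.6%. Averaged over the lines 8 of the 10 were called higher, against 5.62%. Nlrx1 kept its direction and its call there, at 3.45 in the Fadd line (0.000926) and 3.10 for the difference (0.0038). Between the knockout groups these fits called 6 of the 10 higher and 1 lower, against 19.6% and 22%, and between the put back groups 9 higher and 1 lower, against 16.6% and 16.9%. They rest on 2 libraries a group, and they call 2923 genes in the Casp8 line, where 1 is called with all libraries.

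Set against each other, the knockout groups differed in 4 of the 10 genes, and Trim25 and Dhx58 were also called higher in the Fadd line with the protein put back. Between the knockout groups edgeR called 4 of the 10 genes higher in Fadd/Mlkl knockout cells, against 3.46% of all genes tested, and 0 lower, against 7.01%. These were Trim25 (log2 change 2.16, SE 0.408, adjusted p = 0.00722), Adar (1.77, SE 0.347, adjusted p = 0.00881), Dhx58 (3.44, SE 0.81, adjusted p = 0.0206) and Eif2ak2 (1.43, SE 0.341, adjusted p = 0.0217). In these 4 genes, and in Ifih1 and Ddx58, every Fadd/Mlkl knockout library lay above every Casp8/Mlkl knockout library, as in 13% of all genes tested. DESeq2 called 5 of the 10 higher and 1 lower, against 6.37% and 10.4%. Dhx58 missed the threshold without Fadd/Mlkl knockout replicate 1 (0.0736) or Casp8/Mlkl knockout replicate 2 (0.0514) or 3 (0.0752), and with the replicate number as a block over all libraries (0.0556), and Eif2ak2 without the same 3 libraries (0.0704, 0.0542 and 0.0641). Trim25 and Adar stayed under it with any 1 library left out, at an adjusted p of at most 0.0314 and 0.0353. Nlrx1 ran the other way, at -1.07 (SE 0.331, edgeR adjusted p = 0.0663; 0.0306 without Casp8/Mlkl knockout replicate 1), with the 2 groups not overlapping and Fadd/Mlkl knockout the lower, as in 14.8% of all genes tested. Tbk1 was at 0.39 (SE 0.182, edgeR adjusted p = 0.212), and passed at 0.61 without Casp8/Mlkl knockout replicate 1 (adjusted p = 0.028).

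Between the groups with the protein put back, 2 of the 10 genes were higher in Fadd put back cells, against 2.93% of all genes tested, and 1 was lower, against 3.4%. DESeq2 called 4 of the 10 higher and 1 lower, against 6.14% and 6.41%. Trim25 was higher by a log2 of 2.64 (SE 0.417, edgeR adjusted p = 0.00582) and Dhx58 by 3.31 (SE 0.818, edgeR adjusted p = 0.0381). The Dhx58 call rested on many libraries at once, since it was lost without any of the 3 Fadd put back libraries (adjusted p = 0.0509, 0.101 and 0.102), without Casp8 put back replicate 2 or 3 (0.164 and 0.154), without Casp8/Mlkl knockout replicate 2 or 3 (0.051 and 0.0546) with limma-voom (0.106) and with the replicate number as a block over all libraries (0.052). Nlrx1 was lower by a log2 change of -3.94 (SE 0.38, edgeR adjusted p = 0.000362), which is a level of 0.0653 times that in Casp8 put back cells, and its groups did not overlap, as in 14.4% of all genes tested, counting those lower in the Fadd line. Mavs, Tbk1, Eif2ak2 and Adar also lay higher in every Fadd put back library than in any Casp8 put back library, beside Trim25 and Dhx58, as in 12.5% of all genes tested. None of those 4 passed by edgeR with all 12 libraries and no block. With the replicate number as a block over all libraries Tbk1 passed (0.55, edgeR adjusted p = 0.0384). Adar passed without Fadd/Mlkl knockout replicate 1 (adjusted p = 0.0264), and Tbk1 without Casp8/Mlkl knockout replicate 1 (0.0372).

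**Figure D4:**
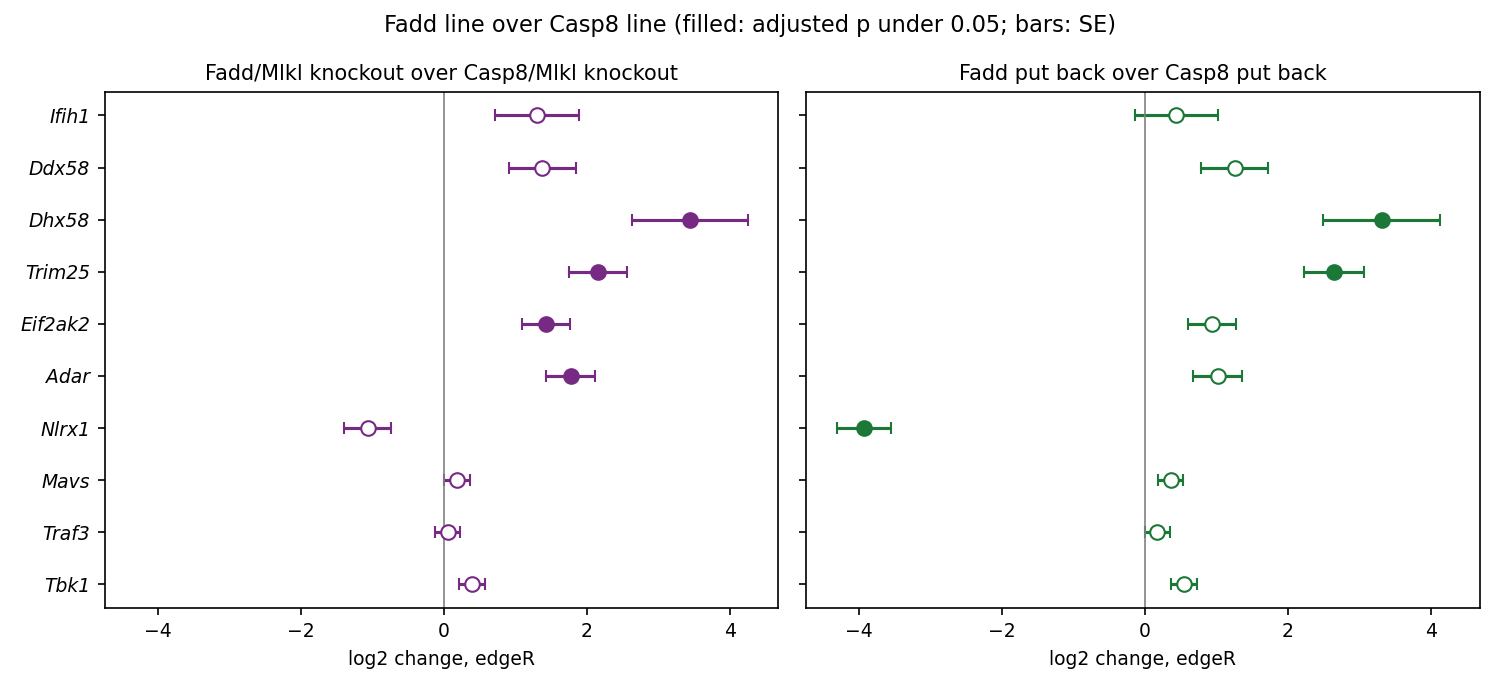
Fitted log2 change of each gene, Fadd line over Casp8 line, between the knockout groups and between the put back groups, with bars for the SE of the edgeR fit and filled points for an adjusted p under 0.05. Dhx58 and Trim25 are filled to the right in both panels, and Nlrx1 lies at -1.07 between the knockout groups and at -3.94 between the put back groups.

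In order of level, Ddx58, Dhx58, Trim25, Eif2ak2 and Adar ran Fadd/Mlkl knockout, Fadd put back, Casp8/Mlkl knockout, Casp8 put back. Of the neighbours in that order, the first and second were apart for all but Trim25, and the second and the third overlapped for all but Trim25. The third and the fourth overlapped for Ddx58, Dhx58 and Eif2ak2. Ifih1 had the Casp8/Mlkl knockout in second place, overlapping the next. Nlrx1 ran Casp8/Mlkl knockout, Casp8 put back, Fadd/Mlkl knockout, Fadd put back, with the first and second overlapping and the others apart. For Mavs and Tbk1 the order was Fadd put back, Fadd/Mlkl knockout, Casp8/Mlkl knockout, Casp8 put back, and all neighbours overlapped. Traf3 ran Fadd/Mlkl knockout, Casp8/Mlkl knockout, Fadd put back, Casp8 put back, with the second and the third apart. TPM gave the same order for 8 of the 10 genes, all but Mavs and Traf3.

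Over the 12 libraries the levels of Ddx58, Dhx58, Trim25, Eif2ak2 and Adar went up and down together. Pearson's r of log2 CPM, which also reflects the shared line and replicate of the libraries, was 0.975 between Ddx58 and Eif2ak2, 0.966 between Ddx58 and Dhx58, 0.984 between Eif2ak2 and Adar and 0.958 between Dhx58 and Trim25. Ifih1 stood a little apart, at 0.853 with Ddx58 and 0.745 with Trim25. Mavs and Tbk1 were alike at 0.888, and each was at -0.677 with Nlrx1. Among all genes tested outside the 10, those most alike to Ifih1 included Trim34a (0.981) and Irgm1 (0.97). Those most alike to Ddx58 were Gbp10 (0.984), Parp12 (0.983) and Gbp3 (0.983), and those to Dhx58 were Irf7 (0.993), Oas1b (0.991) and Parp12 (0.989). Trim25 was most like Trim14 (0.979), Apol9b (0.976) and Tap1 (0.973), Eif2ak2 most like Parp12 (0.991), Gm6548 (0.985) and Ifit3 (0.984), and Adar most like Ifit3 (0.985), H2-D1 (0.984) and Parp12 (0.981). Nlrx1 was most like Hoxc11 (0.943), Bc1 (0.936) and Hoxa11 (0.935), and Traf3 most like Mettl7b (0.927), Lamb1 (0.925) and Nfkb1 (0.911). These are descriptions of 12 libraries, with no test.

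**Figure D5:**
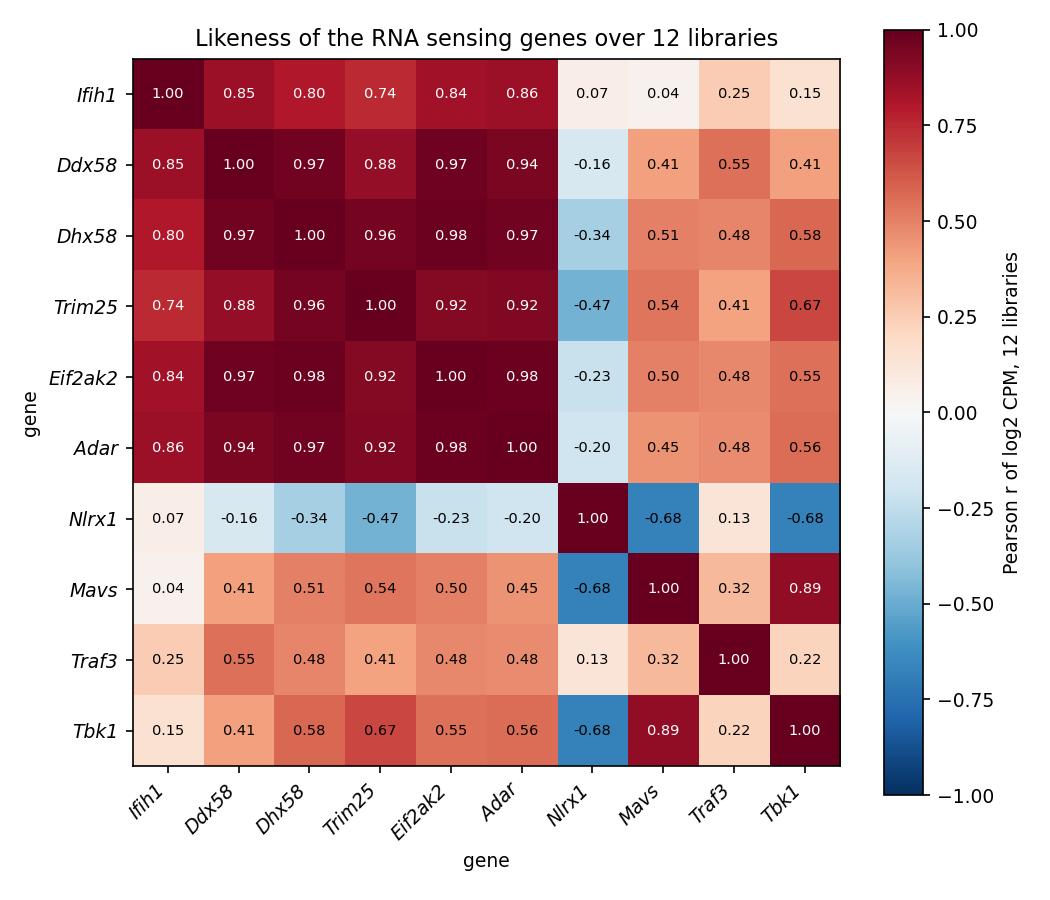
Pearson's r of log2 CPM over the 12 libraries between each pair of the 10 genes, from blue at -1 to red at 1. Ddx58, Dhx58, Trim25, Eif2ak2 and Adar form a block of high values, Mavs and Tbk1 pair at 0.888, and Nlrx1 is at -0.677 with both.

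The wider pathway was described through 6 lists of 54 genes, of which 53 were tested. By edgeR, 1 of 9 cofactors of RIG-I and MDA5 fell and 0 rose without FADD, against 1.24% and 0.287% of all genes tested. There Zc3hav1 and Ddx60 were higher at an unadjusted p under 0.05, as were 4.4% of all genes tested. DESeq2 called these and Zcchc3, with 1.37% of all genes tested called higher and 473 genes called lower. Without caspase-8, 0 of the 9 passed by edgeR, DESeq2 or limma-voom, which called 0%, 0.805% and 0% of all genes tested higher. The same genes, Zc3hav1 and Ddx60, were higher at an unadjusted p under 0.05, against 4.12% of all genes tested. The gene that fell was Zcchc3, whose protein helps the helicases bind RNA. It had 1 count over the 3 Fadd/Mlkl knockout libraries and 72 over those with Fadd put back (edgeR adjusted p = 0.00471), against 588 without caspase-8 and 494 with Casp8 put back (0.978). It was also the 1 cofactor called lower in the Fadd line between the knockout groups (edgeR adjusted p = 0.000125) and between the put back groups (0.0212). The median log2 change of the list was 0.104 without FADD and 0.00979 without caspase-8. Between the knockout groups 3 of the 9 were higher in the Fadd line and 1 lower, against 3.46% and 7.01% of all genes tested, the higher being Ddx60 (log2 change 4.84, SE 0.986, edgeR adjusted p = 0.0108), Zc3hav1 (0.81, SE 0.17, 0.0127) and Rnf135 (0.93, SE 0.269, 0.0495), the last being the ligase Riplet that acts on RIG-I. Ddx60, a helicase cofactor, was at 97.1, 16.7 and 23.2 CPM without FADD and at 2.05, 6.31 and 8.90 CPM with Fadd put back, and its log2 change of 2.99 did not pass (SE 0.897, edgeR adjusted p = 0.184). It was the 1 cofactor called higher in the Fadd line between the put back groups (4.74, SE 1.04, edgeR adjusted p = 0.0244), against 2.93% of all genes tested. With 14, 9 and 10 counts of Ddx60 in the Casp8 put back libraries, the size of this change rests on few reads.

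Of 12 genes that signal from MAVS, 0 passed by edgeR in either line, with Irf7 higher without FADD, and Irf7 and Tbkbp1 without caspase-8, at an unadjusted p under 0.05. DESeq2 called Irf7 higher without FADD and 0 of the list without caspase-8. Over all genes tested, edgeR called 0.287% higher without FADD and 0% without caspase-8, and DESeq2 1.37% and 0.805%. At that unadjusted p 4.4% and 4.12% of all genes tested were higher. The median log2 change was 0.0633 for the loss of FADD and 0.118 for that of caspase-8. Tank, an adaptor of TBK1, was higher in the Fadd line between the knockout groups (1.01, SE 0.264, edgeR adjusted p = 0.0331) and between the put back groups (1.01, SE 0.264, 0.0467). Irf7, the interferon-induced transcription factor gene, was at 450.2, 44.3 and 70.7 CPM without FADD and at 14.0, 20.6 and 26.3 CPM with Fadd put back. The groups did not overlap, and the log2 change of 3.22 did not pass (SE 0.981, edgeR adjusted p = 0.192). It was higher in the Fadd line between the knockout groups (4.56, SE 1.05, 0.0188). Of 11 inhibitors of the pathway, 0 passed in either line by edgeR, while DESeq2 called Tkfc lower without FADD and Nlrc5 higher without caspase-8. At an unadjusted p under 0.05, Tnfaip3 and Nlrc5 were higher and Otud5 and Tkfc lower without FADD, and Pcbp2 and Nlrc5 were higher without caspase-8. The medians were 0.251 and 0.146. The shares of all genes tested called higher are those given above for the MAVS list, beside 473 genes that DESeq2 called lower without FADD. Nlrc5 was higher in the Fadd line between the knockout groups (3.78, SE 0.981, edgeR adjusted p = 0.0325) and Pcbp2, whose protein promotes the breakdown of MAVS, was lower (-0.89, SE 0.225, 0.0279). Of the inhibitors, Nlrc5 alone passed by edgeR between the put back groups (4.38, SE 1.04, adjusted p = 0.033).

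Of 7 genes of the PKR arm and 5 genes of other proteins that bind or edit double-stranded RNA, 0 passed by edgeR in any of the 6 comparisons. At an unadjusted p under 0.05, 0 of either list differed within a line, and DESeq2 and limma-voom called 0 there. Of all genes tested, 4.4% were higher at that unadjusted p without FADD and 4.12% without caspase-8. Atf4 of the PKR arm and Dicer1 of the other list were lower in the Fadd line between the knockout groups at that unadjusted p and were called by DESeq2, and Atf4 also between the put back groups. Median log2 changes without FADD were -0.0246 for the PKR arm and -0.0493 for the other list, and without caspase-8 they were 0.0392 and 0.069. The largest in the Fadd line were 0.34 for Dnajc3, an inhibitor of PKR (SE 0.16, edgeR adjusted p = 0.527), and -0.11 for Tarbp2 (SE 0.237, 1) in the first list, and 0.18 for the editing enzyme gene Adarb1 (SE 0.421, 1) and -0.12 for Dhx9 (SE 0.291, 1) in the second. Adarb1 was at 41.0, 23.8 and 23.1 CPM without FADD and at 36.6, 22.2 and 18.7 CPM with Fadd put back, and these groups overlapped, unlike those of Adar.

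Of 10 genes of interferon output, 9 were tested, and all 9 had fitted changes above 0 in both lines, with a median of 1.97 for the loss of FADD and 1.72 for that of caspase-8, but 0 passed by edgeR or limma-voom in either. At an unadjusted p under 0.05, 8 of the 9 were higher without FADD and 6 without caspase-8, and DESeq2 called Rsad2 and Cxcl10 higher without FADD and Rsad2, Usp18 and Isg15 without caspase-8. Over all genes tested, 4.4% and 4.12% were higher at that unadjusted p, and DESeq2 called 1.37% and 0.805% higher. Replicate 1 stood apart here as well. Isg15, which codes for a ubiquitin-like protein induced by interferon, was at 263.6, 68.5 and 67.7 CPM without FADD and at 10.2, 34.8 and 44.7 CPM with Fadd put back. Without caspase-8 it was at 3.57, 27.2 and 15.0 CPM, against 2.64, 1.85 and 2.88 CPM with Casp8 put back. The groups did not overlap in either line, but the largest pair difference lay in replicate 1 of the Fadd line and the smallest in replicate 1 of the Casp8 line. Ifit3, another interferon-induced gene, was at 440.5, 45.1 and 39.1 CPM without FADD and at 4.12, 23.3 and 16.8 CPM with Fadd put back. Ifnb1, which codes for interferon beta, was too low to be tested. Without FADD it had 35, 2 and 2 counts, against 0, 1 and 0 with Fadd put back, and without caspase-8 it had 0, 1 and 0, against 1, 0 and 0 with Casp8 put back. Nearly all its reads were therefore in Fadd/Mlkl knockout replicate 1, the library in which Ifih1, Ddx58, Dhx58, Trim25, Eif2ak2 and Adar were highest. Between the knockout groups 5 of the 9 were called higher in the Fadd line, against 3.46% of all genes tested, namely Ifit1, Cxcl10 (log2 change 2.87, SE 0.507, edgeR adjusted p = 0.00518), Ifit3 (4.31, SE 1.04, 0.0229), Isg15 (3.13, SE 0.796, 0.0293) and Rsad2 (4.59, SE 1.16, 0.0287). Between the put back groups 5 of the 9 were also called higher in the Fadd line, namely Ifit1, Usp18, Cxcl10, Isg15 and Rsad2 (log2 changes of Cxcl10, Isg15 and Rsad2 2.13, 3.6 and 5.01, with edgeR adjusted p = 0.0304, 0.0285 and 0.0447), against 2.93% of all genes tested. DESeq2 called 6 of the 9 there, with 6.14% of all genes tested called higher and 6.41% lower, and limma-voom 0. Rsad2 held 10, 5 and 8 counts in the Casp8 put back libraries, so the size of its change rests on few reads.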

How the data were processed

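RNA was measured in 12 libraries, 3 in each of 4 groups taken from the sample titles. Per the labels' protocols, the authors made stranded libraries from total RNA, trimmed reads with Cutadapt in Trim Galore (0.5.0 in the submitters' processing notes), aligned them with STAR (2.7.5a) to mm10 with GENCODE M22, and counted with RSEM. The deposited tables hold expected counts, which carry no normalisation, with TPM and FPKM values scaled by the authors for transcript length, per the file headers. Of the counts above 0, 95.8% to 96.3% per library are exactly whole. The 92 spike-in rows, all at 0, and a table of retrovirus reading frames were not used here. Positions are those of GENCODE M21, and promoters those of RefSeq's GRCm38.p6 table.

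Each expected count was rounded to a whole number. Filtering was by filterByExpr with a minimum count of 10, scaling by TMM, and the fit by edgeR 4.0.16 (R 4.3.3), with 1 mean per group over all 12 libraries, a quasi-likelihood test and a common biological coefficient of variation of 0.37. Calls are Benjamini-Hochberg adjusted p under 0.05 over all 16396 genes tested. There were 6 comparisons, which share libraries: the knockout over the put back group within a line, the average and the difference of these, and the Fadd line over the Casp8 line in either state. Standard errors were the log2 change over the root of F. The fit was also run on simulated data with a smaller coefficient of variation and no replicate effect, which does not gauge its error here. Alternatives were DESeq2 1.42.0, limma-voom (limma 3.58.1), other size factors, no filter, replicate blocks, and fits without each library, without replicate 1, or with a line's 6 libraries alone.

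The members and lists were chosen with earlier results of these data known. All 10 genes are named, and from each list up to 4 called genes by adjusted p, or else the 2 with the largest change without FADD. Ifnb1, and list genes given only for an unadjusted p or a DESeq2 call, were chosen with their values in view. The most alike genes are the 3 with the highest correlation of log2 CPM (prior count 2), of which 1 is not reported here. Groups were ordered on CPM rather than on the planned TPM, a choice made after the data were seen, because genes other than protein-coding ones took 63.9% to 74.7% of TPM per library. Libraries with the same number deviated together, with correlations of 0.66, 0.391 and 0.639 for the Fadd line and 0.203, 0.305 and 0.127 for the Casp8 line, and were taken as pairs. This pairing comes from the data, since no label tells what the numbers stand for. The labels call the cultures independent. Reads without molecular identifiers are not independent molecules.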

Additional observations from a re-analysis of the deposited data

Results flagged for a closer look

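Nlrx1 changed differently in the 2 lines. It was higher without FADD than with Fadd put back, where it was lowest of all groups, and was not called without caspase-8. The difference between the 2 log2 changes was 2.87, called by the interaction term of the edgeR fit (adjusted p = 0.0176). This call was lost in 6 of the 12 edgeR fits with 1 library left out, at an adjusted p of up to 0.0727. The Fadd put back libraries held only 20, 10 and 11 counts of Nlrx1. All 3 Fadd/Mlkl knockout libraries lay above all 3 with Fadd put back, at 2.81 ± 0.66 against 0.302 ± 0.108 CPM (SD, n = 3 each), while Casp8/Mlkl knockout libraries averaged 5.90 ± 1.49 and those with Casp8 put back 4.68 ± 1.02 CPM.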

How the results depend on the processing

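With other size factors every one of the 60 changes of the members kept its direction and its side of the threshold, and so they did without a filter. Genes called numbered 250, 1, 89, 138, 1718 and 1039 in the Fadd line, the Casp8 line, their average, their difference, the knockout groups and the put back groups, and members called 1, 0, 1, 1, 4 and 3. DESeq2 called 697, 143, 541, 420, 2753 and 2058 genes, and 2, 6 and 5 members in the Fadd line, the average and the put back groups. Fits without replicate 1 called 1001, 2923, 1786, 1842, 6822 and 5498 genes and 2, 7, 8, 4, 7 and 10 members. The replicate block within each line called 444, 6, 179 and 239 genes in the first 4 comparisons, and 2 members in the average. Its pairs lie within lines, so it gives no value between lines. It changed no other call of a member. Without a filter 4 genes were called in the Casp8 line and 180 in the average, and with the Casp8 line's 6 libraries alone 0. With 1 library left out, genes called ran from 103 to 390, 0 to 22, 53 to 179, 90 to 241, 829 to 2558 and 301 to 2251, and members called from 1 to 1, 0 to 0, 1 to 1, 0 to 1, 2 to 6 and 2 to 4.

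Signs turned without replicate 1 for the difference between lines of Ifih1 (-0.272), Ddx58 (-1.29), Dhx58 (-2.36), Eif2ak2 (-0.53) and Adar (-0.201), and for Tbk1 in the Casp8 line (-0.0839) and the average (-0.121). The replicate block over all libraries turned the Dhx58 difference to -0.174 and the Tbk1 average to -0.013, the block within each line to -0.157 and -0.0142, and limma-voom the Tbk1 average to -0.011. With 1 library left out, values whose sign turned ran from -0.354 to 0.357 for the Ddx58 difference, -1.06 to 0.662 for that of Dhx58 and -0.295 to 0.0631 for that of Tbk1, from -0.0876 to 0.177 for Mavs and -0.142 to 0.218 for Tbk1 in the Casp8 line, from -0.107 to 0.0329 for Mavs and -0.11 to 0.0705 for Tbk1 in the average, and from -0.00571 to 0.162 for Traf3 between the knockout groups. The cause was not tested for any of these. Matches of the promoter core on the gene's strand alone were in 2 of the 12 promoters, against 1.74% of all, and of the shorter core in 3, against 4.48%. FPKM gave the same order of groups as TPM for 8 of the 10 genes. Depth limits Nlrx1, Zcchc3 and Ifnb1, which rest on few counts. It also limits Ddx60 and Rsad2 between the put back groups, with 14, 9 and 10 and with 10, 5 and 8 counts in Casp8 put back.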
